A study of Mus musculus with 73 samples.

Results

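The Hox genes are the homeobox genes that lie in 4 clusters in the mouse genome: HoxA on chromosome 6, HoxB on chromosome 11, HoxC on chromosome 15 and HoxD on chromosome 2. The rule takes 38 of them by gene name and family and uses no measured value, and 37 have a row in the deposited RNA table of 37310 genes. Hoxd4 could not be matched by its identifier and is not analysed here. By cluster the rows are 10 of HoxA, 10 of HoxB, 9 of HoxC and 8 of HoxD, and by paralogue group, the number in the gene's name, they are 7 of groups 1 to 3, 14 of groups 4 to 8 and 16 of groups 9 to 13. Of the 37 genes, 13 passed the filter on low counts and were tested among 16636 genes in all.

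Hox genes encode transcription factors with a homeodomain that give cells along the body axis their positional identity. Within a cluster their order follows the axis: low-numbered genes act towards the head and come on early, and high-numbered genes act towards the tail and limb tips and come on late. In embryonic stem (ES) cells the clusters are known as textbook targets of Polycomb repression, and retinoic acid, Wnt signals and the caudal (Cdx) factors are known to open them on differentiation.

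The cells were the male mouse ES line E14Tg2a, from the strain 129/Ola and with a single X, kept feeder-free on gelatin in medium with serum and leukemia inhibitory factor (LIF). The series edits the Xic, or X-inactivation centre, by TALEN or CRISPR. It is the X-linked region with Xist and Tsix, which are antisense to each other. Of the 73 samples 12 are the RNA libraries used here. The groups were: the 40kb [Tsix-Xist] allele in 4 libraries, the 70kb [Xite-Jpx] allele in 4 libraries, and, for each allele, the 2 wild-type libraries that the titles pair with it. The labels do not say whether each RNA allele is an inversion or a deletion. Each allele comes from 2 clones, 2G1 and 3D5 for 40kb and 18C6 and 20E7 for 70kb, called clone 1 and clone 2 here, with 2 replicates each. Each clone is a line grown from 1 edited cell, and the labels do not say that replicates are separate cultures, so the p-values measure the spread between these samples, which may in part be technical. No Hox cluster is on the X chromosome.

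Libraries held 34514493 to 46605508 counts of polyadenylated RNA. A level is given in CPM, the counts per 1000000 counts of the scaled library, and 3 counts, the limit that a count of 0 allows, correspond to 0.0685 to 0.0884 CPM. The ES label held in every library: Pou5f1 lay between 774.7 and 1356 CPM, Nanog between 305.4 and 694.2 CPM and Sox2 between 405 and 686.9 CPM. Gene lengths were not used, so levels are compared between libraries and not between genes.

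Promoters of 3 HoxD genes are shown because Hoxd8 and Hoxd9 are the members that passed the test in the 40kb comparison, while Hoxd13 stands at the far end of the same cluster and did not. The windows run from 250 bases before to 50 after the annotated start, are RefSeq sequence of GRCm38.p6, and lie on the plus strand of chromosome 2 at chr2:74704365-74704664 (Hoxd8), chr2:74697513-74697812 (Hoxd9) and chr2:74667975-74668274 (Hoxd13). Capitals mark CG dinucleotides, the bases that make up CpG islands.
Hoxd8: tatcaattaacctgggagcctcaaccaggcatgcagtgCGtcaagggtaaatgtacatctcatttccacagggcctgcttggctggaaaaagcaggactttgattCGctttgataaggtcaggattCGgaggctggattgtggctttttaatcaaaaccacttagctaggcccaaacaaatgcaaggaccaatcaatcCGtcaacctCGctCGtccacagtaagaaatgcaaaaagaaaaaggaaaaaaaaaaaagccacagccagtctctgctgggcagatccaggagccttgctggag
Hoxd9: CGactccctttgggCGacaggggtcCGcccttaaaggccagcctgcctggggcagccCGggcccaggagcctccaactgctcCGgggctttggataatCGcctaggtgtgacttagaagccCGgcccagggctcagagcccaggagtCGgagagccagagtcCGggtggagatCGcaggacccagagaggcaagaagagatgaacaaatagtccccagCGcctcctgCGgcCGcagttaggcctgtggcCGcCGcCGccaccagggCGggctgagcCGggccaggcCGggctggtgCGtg
Hoxd13: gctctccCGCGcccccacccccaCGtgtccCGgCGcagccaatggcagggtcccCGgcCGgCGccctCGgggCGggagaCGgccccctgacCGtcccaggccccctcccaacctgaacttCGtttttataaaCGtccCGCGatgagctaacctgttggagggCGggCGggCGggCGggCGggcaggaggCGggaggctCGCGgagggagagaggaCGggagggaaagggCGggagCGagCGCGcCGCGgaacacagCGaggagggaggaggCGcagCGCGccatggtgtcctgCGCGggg

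The Hoxd8 window holds 6 CG dinucleotides at 46.67% GC, the Hoxd9 window 20 at 68.33% and the Hoxd13 window 37 at 74.33%. So the 2 genes that fell together differ in the CG content of these windows, and Hoxd9 lies between Hoxd8 and Hoxd13. Over the 24 windows found for 22 of the 38 genes the median was 14.5 CG dinucleotides, with a range of 4 to 45, against 7 over 32851 windows of all genes. Median GC was 57.67% against 52.67%. TTTATG, the letters of a caudal-type motif, occurred on either strand in 5 Hox windows (20.83%), against 11.85% of all windows. AGGTCA, a nuclear receptor half-site, occurred in 7 (29.17% against 16.26%) and TATAAA, the TATA box, in 4 (16.67% against 13.62%). Of the windows shown, Hoxd8 has 1 match to AGGTCA, Hoxd13 has 2 to TATAAA, and Hoxd9 has none of the 3 motifs. The 2 matches of Hoxd13 overlap at the same place, read on opposite strands. These matches describe the letters of the windows only.

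All 4 clusters were near silent. The 37 genes together drew 2756 counts over the 12 libraries, and their summed level ran from 3.07 to 10.6 CPM per library, with a median of 5.66 CPM. Between 17 and 33 of the 37 genes had at least 1 count in a library. Averaged over the libraries, 2 genes reached 1 CPM: Hoxc13 at 1.32 CPM and Hoxd13 at 1.10 CPM. Both belong to the last paralogue group, whose genes act at the tail and limb tips and, for Hoxc13, in hair and nails. The 24 genes below the filter had 2 to 54 counts in all 12 libraries together and at most 12 in any 1 library.

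**Figure D1:**
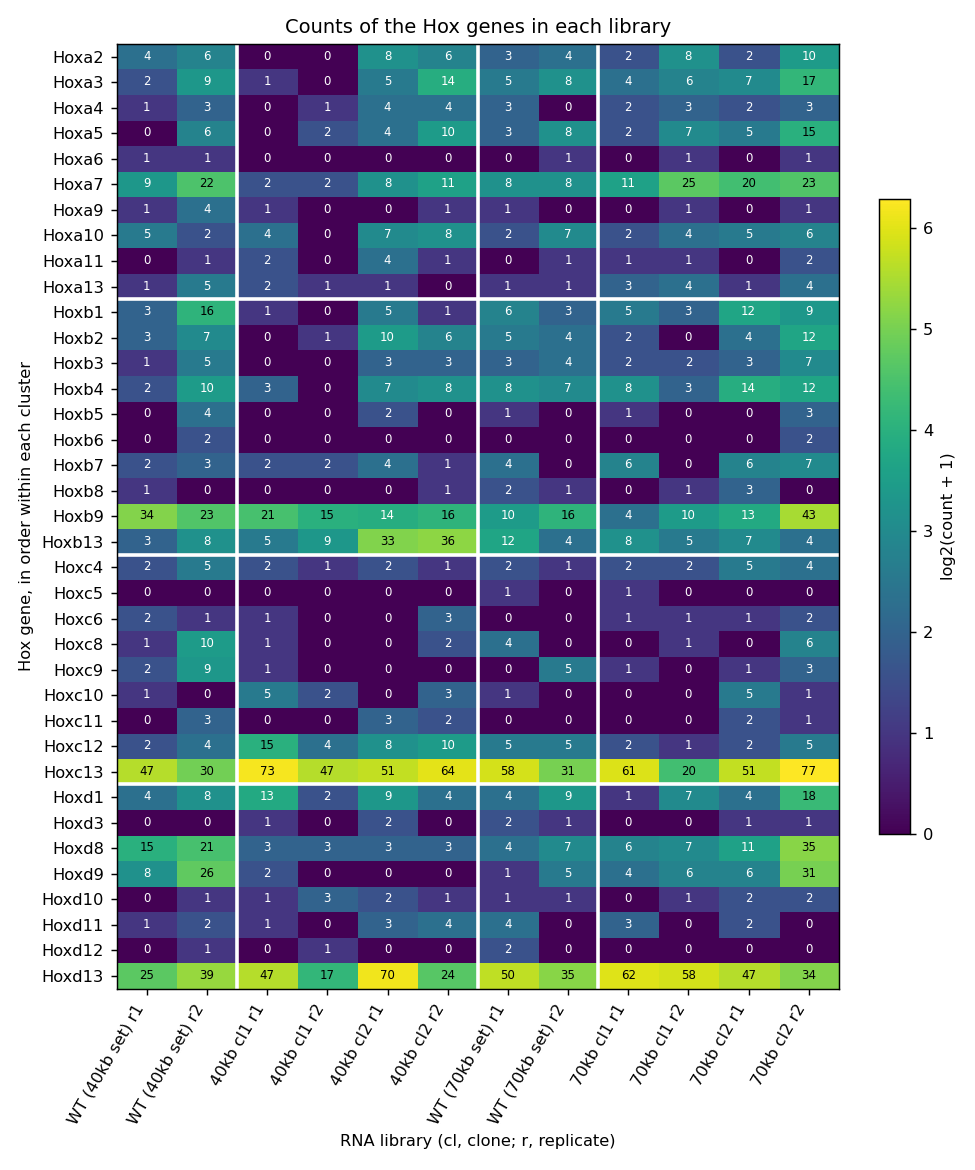
Raw counts of the 37 Hox genes (rows, by cluster and position) in the 12 RNA libraries (columns, by group, clone and replicate). Brighter cells hold more counts. Hoxc13 and Hoxd13 hold 40.57% of all Hox counts, while 24 of the 37 genes have at most 12 counts in any library.

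By cluster, HoxA held 472 counts (17.13%), HoxB 647 (23.48%), HoxC 792 (28.74%) and HoxD 845 (30.66%). By position, groups 1 to 3 held 373 counts (13.53%), groups 4 to 8 held 571 (20.72%) and groups 9 to 13 held 1812 (65.75%). Counts grow with transcript length, so these are shares of reads and not of molecules. Without Hoxc13 and Hoxd13 the other 35 genes drew 1638 counts.

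Counts were uneven along each cluster. In HoxA, Hoxa7 drew 149 counts, Hoxa3 78 and Hoxa5 62, while Hoxa6, between Hoxa5 and Hoxa7, drew 5. In HoxB, Hoxb9 drew 219 and Hoxb13 134, while Hoxb6 and Hoxb8 drew 4 and 9. In HoxC, Hoxc13 drew 610 and its neighbour Hoxc12 drew 63, while Hoxc5 had 2. In HoxD, Hoxd13 drew 508, Hoxd8 118 and Hoxd9 89, and the 3 genes between Hoxd9 and Hoxd13 drew 15 (Hoxd10), 20 (Hoxd11) and 4 (Hoxd12). Hox genes overlap one another and antisense transcripts in places, and how the counting used strand was not given in the sources used here, so reads of such partners may be shared.

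Libraries differed in their Hox total more than the groups did. Wild type of the 40kb set stood at 4.19 and 7.52 CPM, and wild type of the 70kb set at 5.22 and 4.60 CPM. Clone 1 of 40kb stood at 4.80 and 3.07 CPM, and its clone 2 at 6.73 and 6.94 CPM. Clone 1 of 70kb stood at 6.10 and 5.09 CPM, and its clone 2 at 6.60 and 10.6 CPM. The group means were 5.85 ± 2.35 (SD, n = 2), 5.38 ± 1.82 (n = 4), 4.91 ± 0.436 (n = 2) and 7.09 ± 2.40 CPM (n = 4), and the ranges of the 40kb and 70kb libraries each overlap those of their wild type.

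**Figure D2:**
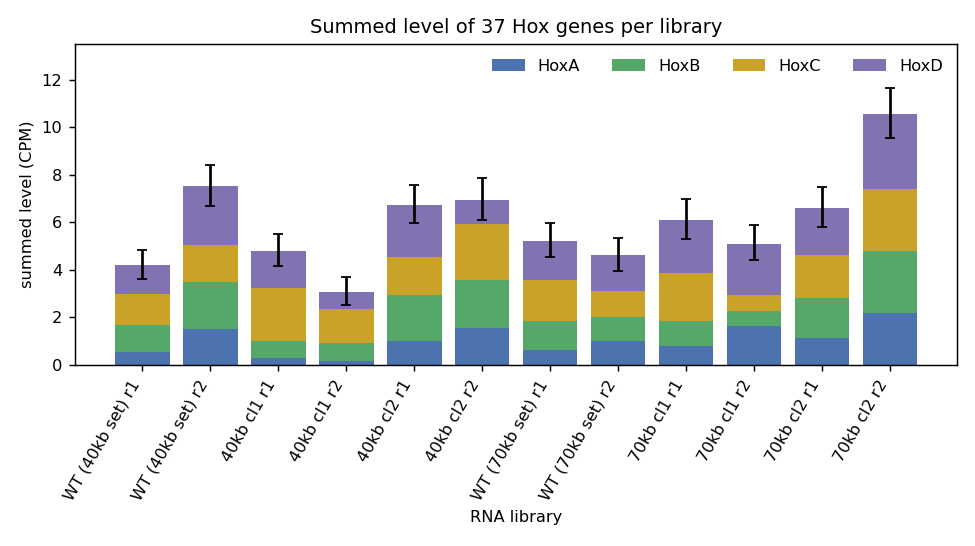
Summed level (CPM) of the Hox genes in each RNA library, stacked by cluster, with exact Poisson 95% intervals of the total that cover counting error only. The totals run from 3.07 CPM in 40kb clone 1 replicate 2 to 10.6 CPM in 70kb clone 2 replicate 2.

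The question of the 40kb comparison was which Hox genes differ between cells with this allele and their own wild type. Hoxd8 and Hoxd9, neighbours in the middle of HoxD that act in the trunk and limb buds, were lower in all 4 edited libraries than in both wild-type libraries. Of the 13 tested genes these 2 fell and none rose (edgeR quasi-likelihood test, adjusted p below 0.05), which is 15.38% of the tested Hox genes against a background of 6.43% of all genes tested (5.67% lower and 0.763% higher). The other 11, from all 4 clusters, did not pass. The 13 genes are those past the filter and not all members, so this share is a description. Without the filter the same 2 genes were called among 37 Hox genes, and 1390 genes among 25365 in all. The Hox share was then close to the share over all genes.

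Hoxd9 had 8 and 26 counts in the wild-type libraries, 2 and 0 in clone 1 and 0 and 0 in clone 2. Thus 3 of the 4 edited libraries had no Hoxd9 count at all, and the groups did not overlap. Its level averaged 0.421 ± 0.336 CPM (SD, n = 2) in wild type, against 0.0114 ± 0.0228 CPM (n = 4) in 40kb. The ratio of the summed counts, scaled for depth, was 32.1-fold lower, with an exact binomial 95% interval of 8.22 to 275 that covers counting error only. The fitted log2 fold change of Hoxd9 was -4.73 (SE 1.17, edgeR adjusted p = 0.0346). Hoxd9 passed the filter on low counts only through wild-type replicate 2 (26 counts) and 70kb clone 2 replicate 2 (31 counts). The second of these libraries lies outside this comparison. In a fit of the comparison's own libraries Hoxd9 was below the filter and was not tested.

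Hoxd8 had 15 and 21 counts in wild type and 3 in each of the 4 edited libraries. The 40kb libraries thus sat at one low level, 0.0770 ± 0.00698 CPM (SD, n = 4), against 0.438 ± 0.133 CPM (n = 2) in wild type. That is at about the level of the 3 counts a count of 0 allows. The counts gave a ratio 5.66-fold lower (exact binomial 95% interval 2.88 to 11.9), and the fitted log2 fold change of Hoxd8 was -2.46 (SE 0.671, edgeR adjusted p = 0.0480). Hoxd8 passed the filter on low counts through both wild-type libraries and, outside this comparison, both libraries of 70kb clone 2. No 40kb library helped it past the filter, so the group where it is high brought it into the test.

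These calls are close to the threshold. The codes B1 to B14 in the sample names, whose meaning is not stated, cut across the replicate numbers in the 40kb set, and with them as a block neither gene passed (adjusted p = 0.0688 for Hoxd9 and 0.149 for Hoxd8). Both were also lost when any 1 of the 6 libraries of the comparison was left out, with edgeR adjusted p-values of 0.0571 to 0.379 for Hoxd9 and 0.0689 to 0.368 for Hoxd8, and every fold change stayed below 0. Against the wild-type libraries of the other set the log2 fold changes were -2.32 for Hoxd9 and -0.83 for Hoxd8, and neither passed (adjusted p = 0.532 and 0.677, range over all alternatives 0.0110 to 0.532 for Hoxd9 and 0.0144 to 0.677 for Hoxd8).

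**Figure D3:**
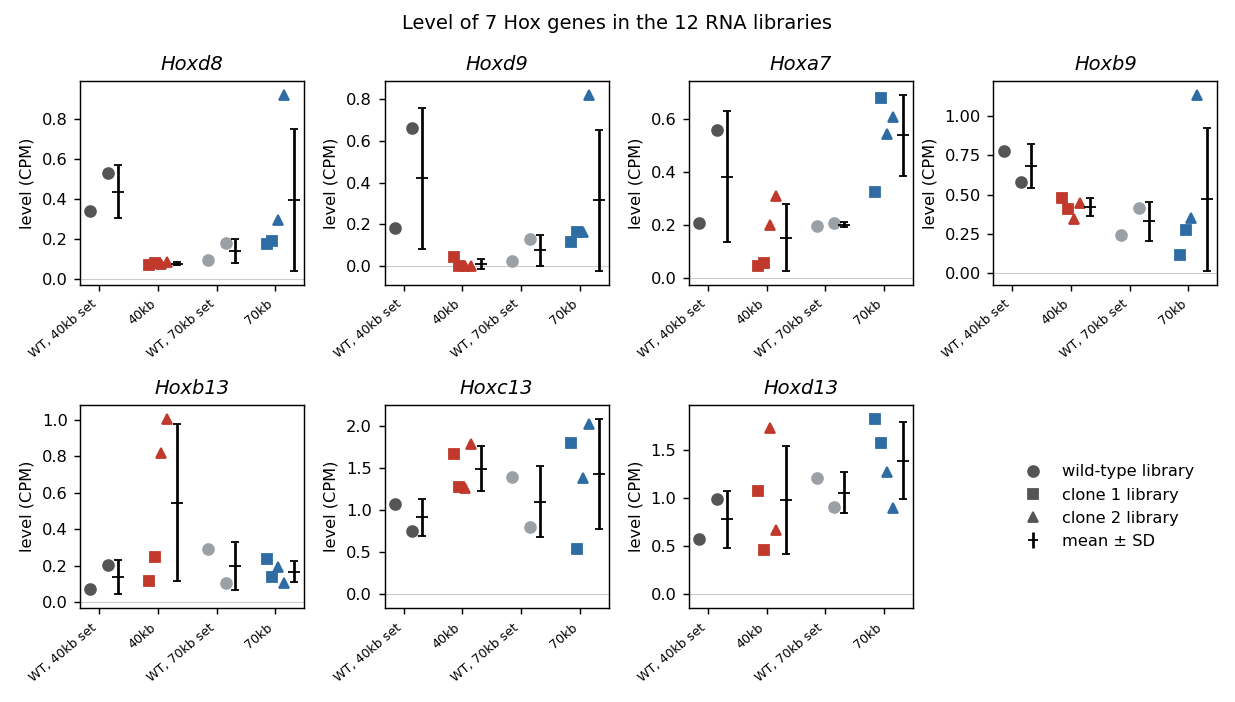
Level (CPM) of 7 Hox genes in each RNA library by group, with squares for clone 1, triangles for clone 2 and bars for the mean ± SD. Hoxd8 sits near 0.0770 CPM in all 4 libraries of the 40kb allele, and 1 library of the 70kb allele stands far above the other 3 for Hoxd8 and Hoxd9.

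The other 2 tested HoxD genes, at the ends of the cluster, did not pass. Hoxd13, which patterns digits and the genital tubercle, had 25 and 39 counts in wild type, 47 and 17 in clone 1 and 70 and 24 in clone 2. Its level was 0.780 ± 0.293 CPM (n = 2) in wild type, against 0.985 ± 0.559 CPM (n = 4) in 40kb, with groups that overlapped and a log2 fold change of 0.34 (SE 0.494, edgeR adjusted p = 0.709). Hoxd1, at the other end and with a known role in sensory neurons, had a log2 fold change of 0.26 (SE 0.868, edgeR adjusted p = 0.882). Hoxd3, Hoxd10, Hoxd11 and Hoxd12 had at most 4 counts in a library and were not tested. Whether the change of Hoxd8 or Hoxd9 differs from that of Hoxd13 was not tested.

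Hoxc13 had 47 and 30 counts in wild type, 73 and 47 in clone 1 and 51 and 64 in clone 2. All 4 edited libraries were above both wild-type libraries in level, at 1.499 ± 0.271 CPM (n = 4) against 0.918 ± 0.224 CPM (n = 2). The difference did not pass the test, with a log2 fold change of 0.70 (SE 0.459, edgeR adjusted p = 0.374). Besides Hoxc13, its neighbour Hoxc12 had all 4 edited libraries above both wild-type libraries, a pattern that 16.4% of all genes tested shared. The reverse held for Hoxd8, Hoxd9 and Hoxb9, and for 19.7% of all genes. Hoxc12 passed the filter on low counts only through 40kb clone 1 replicate 1 and 40kb clone 2 replicate 2. Hoxd8 and Hoxd9 passed it through no 40kb library. For these genes the pattern was thus in part fixed by the filter.

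Of the tested Hox genes 7 had a fold change below 0 and 6 above, with a median log2 fold change of -0.04 against 0.06 over all genes. At an unadjusted p under 0.05 there were 5 Hox genes, against 23.53% of all genes. Besides Hoxd8 and Hoxd9 these were Hoxb1 (log2 fold change -2.31, edgeR adjusted p = 0.150), Hoxc12 (1.64, adjusted p = 0.154) and Hoxb13 (1.99, adjusted p = 0.181). They were picked out here after their values were seen. Hoxc12 was tested only through its 40kb libraries, and Hoxb13 through 40kb clone 2 and a library outside this comparison. Hoxb1, the hindbrain gene that answers first to retinoic acid, had 3 and 16 counts in wild type and 1, 0, 5 and 1 in the edited libraries, so the groups overlapped.

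By position the 14 genes of groups 4 to 8 together had 36 and 88 counts in wild type, 14 and 11 in 40kb clone 1 and 34 and 44 in clone 2. Their summed level was 1.53 ± 0.992 CPM (n = 2) in wild type, against 0.673 ± 0.449 CPM (n = 4) in 40kb. Groups 1 to 3 stood at 0.840 ± 0.638 and 0.609 ± 0.462 CPM, and groups 9 to 13 at 3.49 ± 0.723 and 4.10 ± 0.998 CPM. In each of the 3 position classes the 40kb range overlapped the wild-type range.

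The 40kb clones are given apart because their HoxA counts did not overlap. With 2 libraries per clone such a gap often arises by chance, and its share over all genes was not counted. HoxA as a whole drew 12 and 6 counts in clone 1 and 41 and 55 in clone 2, against 24 and 59 in wild type. As levels these are 0.274 and 0.163 CPM for clone 1, and 1.01 and 1.54 CPM for clone 2. Hoxa2 and Hoxa3, genes of the hindbrain and pharyngeal arches, had 0 and 0 and 1 and 0 counts in clone 1, and 8 and 6 and 5 and 14 counts in clone 2.

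In HoxB the clones did not overlap for Hoxb13, a gene of the tail bud and later of the prostate and hindgut. Nor did they for Hoxb2, with 0 and 1 counts against 10 and 6, and Hoxb4, with 3 and 0 against 7 and 8. Here too the share of all genes with such a gap was not counted, so the pattern is a description. Hoxb13 had 3 and 8 counts in wild type, 5 and 9 in clone 1, and 33 and 36 in clone 2. So clone 2 stood at 0.816 and 1.01 CPM and every other library of the 12 at 0.290 CPM or below. In the fit with a mean per clone its log2 fold change of clone 1 against clone 2 was -2.35 (SE 0.611, edgeR adjusted p = 0.133).

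None of the 13 Hox genes passed between the 40kb clones, against 0.0661% of all genes (11 genes; 0.0481% lower and 0.018% higher), and 4 had an unadjusted p under 0.05 against 16.58% of all genes. Besides Hoxb13 these were Hoxa3 (log2 fold change -4.05, edgeR adjusted p = 0.176), Hoxa7 (-2.27, adjusted p = 0.210) and Hoxb4 (-2.33, adjusted p = 0.292). DESeq2 gave an adjusted p for 3 of the 13 genes and called none of them. Without the filter on low counts edgeR called Hoxa2, Hoxa3 (adjusted p = 0.0137) and Hoxb13 (adjusted p = 0.00617), and without clone 1 replicate 2 it called Hoxb13 (adjusted p = 0.0368). The log2 fold change of Hoxd8 between the clones was -0.08 (SE 0.863).

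In the 70kb comparison, no Hox gene passed the test and neither did any other gene (background 0%). At an unadjusted p under 0.05 there were 0 Hox genes and 100 genes in all (0.6011%), and DESeq2 called 0 Hox genes and 3 genes. Of the 13 Hox genes 11 had a fold change above 0, with a median log2 fold change of 0.49 against 0.00 over all genes, and all had an adjusted p of 1. Across the 13 genes the log2 fold changes ran from -0.84 (Hoxc12) to 2.02 (Hoxd9). Hoxa3, Hoxa5, Hoxb1, Hoxb4, Hoxd1 and Hoxd9 needed libraries of 70kb clone 2 to pass the filter on low counts. None of these genes was high enough for the filter in a wild-type library of the 70kb set. The lean above 0 was thus in part fixed by the filter.

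Hoxd9 had 1 and 5 counts in wild type, 4 and 6 in 70kb clone 1 and 6 and 31 in clone 2. Hoxd8 had 4 and 7 counts in wild type, 6 and 7 in clone 1 and 11 and 35 in clone 2. For both genes the high mean of the edited group, 0.315 ± 0.335 CPM for Hoxd9 and 0.397 ± 0.354 CPM for Hoxd8 (SD, n = 4), came with 1 library far above the others. Without that library the log2 fold change of Hoxd8 was 0.67 in place of 1.51, and Hoxd9 no longer passed the filter.

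Hoxa7, a gene of the thoracic trunk, was the 1 tested Hox gene with all 4 edited libraries above both wild-type libraries, a pattern that 2.4% of all genes shared, and none had the reverse (3.08% of all genes). It had 8 and 8 counts in wild type, 11 and 25 in clone 1 and 20 and 23 in clone 2. Its level was 0.201 ± 0.0104 CPM (n = 2) in wild type, against 0.537 ± 0.153 CPM (n = 4) in 70kb, with a log2 fold change of 1.41 (SE 0.662, edgeR adjusted p = 1).

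The 2 genes of highest count did not pass. Hoxc13 had 58 and 31 counts in wild type, 61 and 20 in clone 1 and 51 and 77 in clone 2, and its log2 fold change was 0.38 (SE 0.452). Hoxd13 had 50 and 35 counts in wild type, 62 and 58 in clone 1 and 47 and 34 in clone 2, and its log2 fold change was 0.39 (SE 0.484). For both, the ranges of the groups overlapped.

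Clone 2 replicate 2 of the 70kb allele held the highest level of 7 of the 13 tested Hox genes (53.85%), and of 12.9% of all genes tested. Among these 7 were Hoxb9, with 43 counts against 4 to 13 in the other 70kb libraries, and Hoxd8 and Hoxd9. Hoxa3, Hoxa5, Hoxd1 and Hoxd9, also among the 7, passed the filter on low counts only through this library and another. The share of tested genes was thus in part fixed by the filter. Over all 37 Hox genes this library held the highest level of 12 (32.43%). Between the 70kb clones no Hox gene passed (background 0.012%, 2 genes; 0.00601% lower and 0.00601% higher), and 2 had an unadjusted p under 0.05 against 9.491% of all genes: Hoxb9 (log2 fold change -1.90, edgeR adjusted p = 0.364) and Hoxd8 (-1.72, adjusted p = 0.401). DESeq2 gave an adjusted p for 3 of the 13 genes and called none of them, and edgeR without the filter on low counts called Hoxb9.

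**Figure D4:**
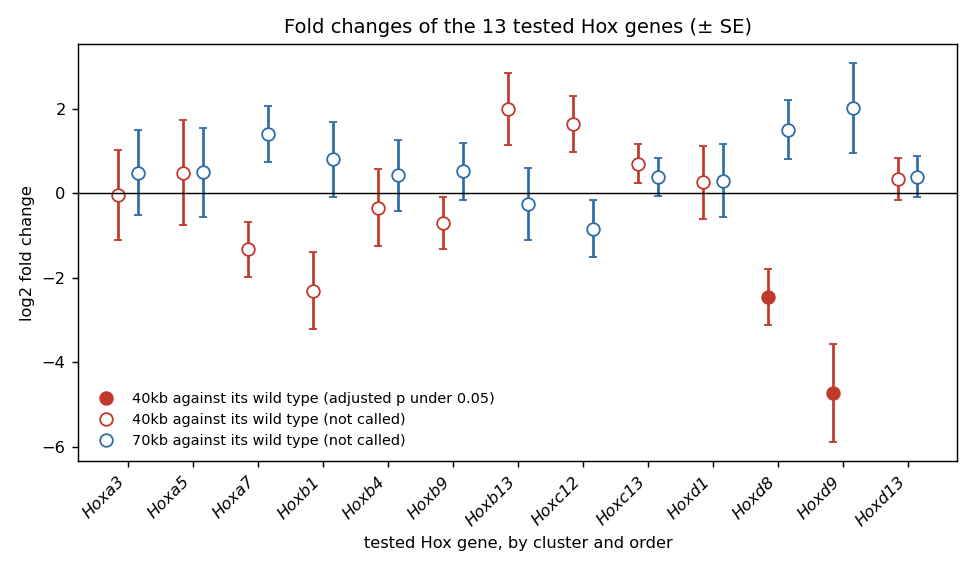
Log2 fold change ± SE of the 13 tested Hox genes, by cluster and position, for the 40kb and the 70kb allele, each against its own wild type, with filled points for genes with an adjusted p below 0.05. Hoxd9 (-4.73) and Hoxd8 (-2.46) are filled in the 40kb comparison, and no point is filled in the 70kb comparison.

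The test of the difference between the allele effects called no Hox gene and no gene at all (background 0%), with 5 Hox genes (Hoxa7, Hoxb1, Hoxc12, Hoxd8 and Hoxd9) and 2128 genes at an unadjusted p under 0.05. The difference was -6.75 for Hoxd9 (SE 1.61) and -3.97 for Hoxd8 (SE 0.974) on the log2 scale, both with an edgeR adjusted p of 0.169. DESeq2 called both, with adjusted p-values of 0.0216 for Hoxd9 and 0.0433 for Hoxd8. So Hoxd8 and Hoxd9 passed in 1 allele and not in the other, while the difference itself passed with 1 of the 2 tools.

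The 2 sets of wild-type libraries are labelled as unedited cells of 1 line, but their sample names write E14 in the 40kb set and E14.2 in the 70kb set, with no word on what sets them apart. No Hox gene passed between them (background 0%), with 0 Hox genes and 394 genes at an unadjusted p under 0.05, and DESeq2 also called no Hox gene. The wild type of the 40kb set was higher than that of the 70kb set for Hoxd9 (0.421 against 0.0771 CPM, log2 fold change 2.41, SE 1.14) and for Hoxd8 (0.438 against 0.139 CPM, 1.63, SE 0.765), both with an edgeR adjusted p of 0.997. The 70kb comparison shares the second of these wild types, so its fold changes, 2.02 for Hoxd9 and 1.51 for Hoxd8, are not independent of these.

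The genes that work with or on the Hox clusters were followed as lists, whose counts are to be read against the 5.67% of all genes called lower and the 0.763% called higher in the 40kb comparison. The 9 TALE cofactors (Pbx, Meis and Pknox genes), homeodomain partners that bind DNA beside Hox proteins, gave no call in the 40kb comparison, with a median log2 fold change of -0.80 against 0.06 over all genes and 3 members at an unadjusted p under 0.05. Of 18 tested genes that flank the clusters 1 fell: Calcoco2, an autophagy receptor gene beside HoxB, from 17.0 ± 1.45 to 5.72 ± 1.07 CPM (log2 fold change -1.57, SE 0.358, edgeR adjusted p = 0.0277). The other 17 did not pass, the median of the flank genes was 0.15, and 1 of 18 is near the share over all genes.

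Of 17 noncoding RNA genes of the clusters 2 were tested. Halr1, transcribed beside HoxA, rose from 7.89 ± 0.529 to 20.6 ± 6.77 CPM (log2 fold change 1.39, SE 0.361, edgeR adjusted p = 0.0408). The wild type of the 70kb set stood at 17.4 CPM, and against it the log2 fold change of Halr1 was 0.25 (adjusted p = 0.785). Hotairm1, transcribed at the start of HoxA, did not pass.

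The caudal genes, which bind and activate Hox clusters in the tail bud, fell in 2 of 3 tested cases: Cdx4 (log2 fold change -3.90, SE 0.564, edgeR adjusted p = 0.0162) and Cdx2 (-4.35, SE 0.923, adjusted p = 0.0236). Of 7 tested genes of the posterior axis 3 fell: Cdx4 again, Fgf8 (-3.58, adjusted p = 0.0201), a growth factor of the tail bud, and T (-4.14, adjusted p = 0.0260), the mesoderm factor Brachyury. The wild-type libraries were far apart for T (15.9 ± 16.1 CPM, SD), Fgf8 (6.79 ± 5.36) and Cdx2 (1.52 ± 1.11), and less so for Cdx4 (2.555 ± 0.504). The wild type of the 70kb set stood at 4.92, 1.89, 0.524 and 0.996 CPM for T, Fgf8, Cdx2 and Cdx4. Against it no gene at all was called in 40kb.

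Of 15 tested retinoic acid genes 3 fell and none rose. Rdh10 (log2 fold change -2.08, edgeR adjusted p = 0.0208) makes retinaldehyde, Dhrs3 (-2.12, adjusted p = 0.0244) turns it back into retinol and Cyp26a1 (-2.04, adjusted p = 0.0289) degrades retinoic acid. The list's members thus act both for and against retinoic acid, and the median was -0.51. Of 24 trithorax and Polycomb genes, which keep Hox clusters on or off, 1 fell, the Polycomb gene Phc2 (-1.21, adjusted p = 0.0361), which is also near the share over all genes, and the median was 0.10. In the 70kb comparison none of these lists had a call. The named genes lost their 40kb calls when either wild-type library was left out, where no gene at all was called. Halr1 also lost its call without any 1 edited library. With the B codes as a block Halr1, Calcoco2, Cdx2, Rdh10 and Cyp26a1 did not pass, with adjusted p-values of 0.124, 0.0924, 0.0591, 0.0595 and 0.0630.

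Markers of other cell types moved with the 40kb comparison. Of 12 tested trophoblast markers 6 fell, of 19 fibroblast markers 11, of 13 primitive endoderm markers 3, of 10 mesoderm markers 2 and of 8 neural markers 1, with none rising, while 2 of 18 naive pluripotency markers rose and none fell. Over all genes 5.67% fell and 0.763% rose, so the single neural call is near that share. The summed trophoblast markers were 525 and 640.1 CPM in wild type and 46.9 to 136.6 CPM in the 40kb libraries. In wild type this sum is mostly the keratins Krt8 and Krt18, with means of 242.7 and 193.9 CPM, against 11.4 and 12.2 CPM in 40kb. Of the 6 trophoblast markers that fell, Krt7, Krt8, Krt18 and Krt19 are keratins, and the others are Cdx2 and Gata3. The summed fibroblast markers, at 1353 to 1551 CPM in wild type and 957 to 1822 CPM in 40kb, consist mostly of Fn1, the gene of fibronectin. The other 19 summed to 310.6 and 408.6 CPM in wild type and to 17.9 to 63.3 CPM in 40kb. The trophoblast marker Tpbpa was at 0 in every library.

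Some of these lists were high in the library with the highest Hox total. By level the trophoblast markers are mostly the keratins Krt8 and Krt18 (means 153.5 and 140 CPM in 70kb). In 70kb clone 2 replicate 2 they summed to 806.2 CPM, against 151.2 to 368.3 CPM in the other 70kb libraries. The caudal genes summed to 5.24 CPM there, against 1.38 to 2.17 CPM. The fibroblast markers without Fn1 summed to 630.5 CPM there, against 62.9 to 240.8 CPM. The mesoderm sum of that library, mostly Lefty2 (mean 209.9 CPM in 70kb), lay within the range of the other 70kb libraries. So did its neural sum, and its naive pluripotency sum was the lowest of the 4. The primitive endoderm sum was the highest of the 4, at 672.2 CPM against 354.4 to 522.2 CPM. The posterior axis sum of that library, mostly Nr6a1 (mean 145 CPM in 70kb), was also the highest, at 209.5 CPM against 115.9 to 158.5 CPM. Elsewhere the sums did not always move with the Hox total. In the wild type of the 40kb set replicate 2 exceeded replicate 1 in the Hox, trophoblast and caudal sums. In the wild type of the 70kb set replicate 2 had the higher trophoblast sum (501.4 against 166.6 CPM) and caudal sum (3.35 against 1.35 CPM) and the lower Hox total. Clone 2 of 40kb had the higher Hox total and the lower caudal sum of the 40kb clones. That sum is mostly Cdx1, with a 40kb mean of 0.804 CPM against 0.0745 for Cdx2 and 0.170 for Cdx4. The median log2 fold change of the 3 caudal genes, clone 1 against clone 2, was -1.47. So most of the caudal genes were higher in clone 2, as the Hox total was, although their sum was lower. The part of these markers in the Hox results was not tested. In bulk RNA, fewer cells of a type and less RNA per cell cannot be told apart.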

How the data were processed

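Per the labels' protocols, the 12 RNA libraries came from a stranded mRNA kit. The authors deposited whole-number counts per gene; the submitters' processing notes name STAR, edgeR and mm9. Annotation release and strand setting: not given in the sources used here. Sample groups came from the titles, and symbols from a table that matched 32620 of 37310 identifiers.

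Testing used R 4.3.3 and edgeR 4.0.16, with TMM scaling, filterByExpr by group, a quasi-likelihood F test on 1 fit with 4 group means (8 residual degrees of freedom, biological coefficient of variation 23.81%), Benjamini-Hochberg adjustment over 16636 genes and a threshold of 0.05. Clones were compared in a fit with 6 means. CPM is the count over the library total times its TMM factor. SE is the log2 fold change over the square root of F. Intervals cover counting error only; reads without molecular identifiers are not independent molecules. Fits were tested on simulated data. Alternatives were DESeq2 1.42.0, other scalings, filters, controls, blocks and left-out libraries.

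The members, though chosen by name, and the lists were chosen with earlier results of these data known. Members given in every library are those called in a comparison and those with a mean of at least 1 CPM; of each list, up to 4 called genes with the smallest adjusted p; others were chosen after their values were seen. The 61 other samples were not used here. A gene of 1 list is not reported here and was left out of that list.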

Additional observations from a re-analysis of the deposited data

Results flagged for a closer look

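Of 42 sets of values checked, each 1 Hox gene or list sum in the 4 libraries of an allele, 3 held a library that stood apart from the other libraries of the group by a gap larger than Dixon's 95% limit. Chance alone flags about 1 in 20 such groups. Hoxd8 in 70kb clone 2 replicate 2 was at 0.922 CPM, against 0.177 to 0.298 CPM in the other 70kb libraries. Hoxd9 in the same library was at 0.816 CPM, against 0.118 to 0.163 CPM. Without that library Hoxd9 would not have passed the filter on low counts and would not have been checked. Its flag there was thus in part fixed in advance. Hoxd9 in 40kb clone 1 replicate 1 was at 0.0457 CPM, which is 2 counts, against 0 in the other 40kb libraries. With the others at 0 any count would have been picked out, so this value says nothing beyond its 2 counts.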

How the results depend on the processing

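In the 40kb comparison 2 Hox genes were called. The count stayed at 2 with RLE scaling, library totals, no filter, DESeq2 and clone 1 alone, where the genes were Hoxa7 and Hoxd8. It was 1 (Hoxd8) in a fit of the comparison's own libraries. There Hoxd9 was not tested, and Hoxd8 passed the filter only through the wild-type libraries, where it is high. With clone 2 alone the count was 1 (Hoxb13). It was 0 with a filter on a mean of 50 counts (1 Hox gene tested), with the other set's wild type, with all 4 wild-type libraries, with counts summed per clone, and without any 1 library (0 to 0). Over all genes, called genes numbered 1070 in the reported fit, 1874 with DESeq2, 720 with the stricter filter, 530 with clone 2 alone, 2476 with clone 1 alone, 3 with counts summed per clone, 0 with the other set's wild type, and 0 to 1099 with a library left out. Against the other set's wild type 3 fold changes turned sign: Hoxb9 in 40kb (0.36), and Hoxd9 (-0.39) and Hoxd8 (-0.13) in 70kb. The difference of the allele effects gave 2 Hox genes with DESeq2. Between 40kb clones the count was 3 with no filter (Hoxa2, Hoxa3 and Hoxb13) and 0 to 1 with a library left out (Hoxb13 without clone 1 replicate 2); between 70kb clones it was 1 with no filter (Hoxb9). For the 70kb comparison and between wild types it was 0 in every alternative run. The causes were not tested. The filter on low counts left 24 of 37 Hox genes out of the reported fit.

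Deviations of libraries with the same replicate number correlated at -0.3976 to 0.7029 over 8 pairs, and those with the same B code at 0.07561 to 0.7029 over 6, so neither is taken to pair the samples, although all 6 correlations for the B code were above 0. With the replicate block the 40kb count was 2 (Hoxd8 and Hoxd9) and 1614 genes were called in all. With the replicate block by B code it was 0, with 357 genes in all. The block by B code could not be fitted between wild types, where the codes lie within the sets.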

Other observations

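Noncoding and even-skipped genes at the clusters were mostly silent too. Evx2, a homeobox gene at the end of HoxD, had 0 counts in all 12 libraries, and its HoxA counterpart Evx1 ran from 0.115 to 1.14 CPM. Hotair, transcribed within HoxC, had 1 count in all 12 libraries together.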
